A study of Mus musculus with 12 samples.

Results

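The 9 genes of coagulation and fibrinolysis described here were followed in bone marrow-derived macrophages, namely the clotting factors F3, F7, F10 and F13a1, the plasminogen activation genes Plau, Plaur and Plat, and the anticoagulant receptors Thbd and Procr. They were chosen by gene symbol and make up 9 of the 43280 genes in the deposited table of log2 CPM, where CPM is the share of a library's counted reads that fall on a gene, scaled to a common library size. Bone marrow-derived macrophages (BMDM) are differentiated from marrow precursors with the growth factor M-CSF. The cells came from wild type (wt) mice or from mice lacking the myeloid receptor gene Treml4 in all cells (Treml4-/-), both on the C57BL6 background. Cells were left unstimulated with vehicle (M0) or received lipopolysaccharide (LPS), a bacterial cell wall component recognised by Toll-like receptor 4, at 100 ng/ml for 8 h (M1-8 h) or 12 h (M1-12 h). Each of the 6 conditions had 2 biological replicates, which gave 12 libraries, and nothing states whether the replicates were separate mice, so that the tests measure the spread between these libraries. The comparisons addressed how LPS and the loss of Treml4 moved the RNA of these genes.

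Blood clotting starts when tissue factor, the product of F3, binds factor VII on a cell surface and the complex activates factor X, which in turn produces thrombin and fibrin. Fibrin is crosslinked by factor XIII and removed by plasmin, which is made from plasminogen by urokinase (Plau), held at the cell surface by its receptor (Plaur), or by tissue-type plasminogen activator (Plat). Thrombomodulin (Thbd) and the endothelial protein C receptor (Procr) together turn thrombin into an activator of protein C, an anticoagulant. Monocytes and macrophages are a known source of inducible tissue factor, of urokinase and its receptor, and of the A subunit of factor XIII.

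Positions in the mouse genome are given on GRCm38 with GENCODE M21 gene bounds. F7 spans chr8:13026034-13035809 and F10 spans chr8:13037308-13056676, both on the plus strand, with 1498 bases between the end of F7 and the start of F10. F3 is at chr3:121723537-121735048, Plau at chr14:20836660-20843385, Plaur at chr7:24462484-24475968, Plat at chr8:22757727-22782844 and Procr at chr2:155751117-155755471, all on the plus strand. Thbd at chr2:148404466-148408188 and F13a1 at chr13:36867178-37050244 are on the minus strand, and F13a1 overlaps 2 antisense genes, Gm49144 and Gm30489. The libraries were stranded, but whether counting used the strand is not given in the sources used here, so reads of F13a1 and of these antisense genes may not be told apart.

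RefSeq promoter sequences (GRCm38.p6, 250 bases before to 50 after the annotated start) were at hand for 6 of the 9 genes. Thbd, Plau and Plat had none at hand and were not searched. The 6 genes had 7 promoters in all because F13a1 had 2. Each was searched on both strands for AP-1 sites (TGANTCA), the PU.1 core (GAGGAA) and the NF-kB consensus (GGG, purine, any, any, pyrimidine, pyrimidine, CC). These are motifs of factors that act in LPS-treated macrophages. AP-1 sites were found in the promoters of F3, Plaur and Procr. Those 3 promoters and the one of F10, which held none of the motifs, are printed 5′ to 3′ because these 4 genes were the ones called higher after LPS at both times by over 4-fold. Capitals mark AP-1 sites in F3 and Procr, and AP-1 sites and PU.1 cores in Plaur.
F3, chr3:121723287-121723586, plus strand: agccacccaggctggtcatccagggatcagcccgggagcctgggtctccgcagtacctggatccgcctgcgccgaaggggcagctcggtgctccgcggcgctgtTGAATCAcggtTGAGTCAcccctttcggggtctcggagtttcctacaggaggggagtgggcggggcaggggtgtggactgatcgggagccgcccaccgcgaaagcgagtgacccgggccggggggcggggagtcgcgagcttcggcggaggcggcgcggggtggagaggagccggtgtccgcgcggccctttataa
Procr, chr2:155750967-155751266, plus strand: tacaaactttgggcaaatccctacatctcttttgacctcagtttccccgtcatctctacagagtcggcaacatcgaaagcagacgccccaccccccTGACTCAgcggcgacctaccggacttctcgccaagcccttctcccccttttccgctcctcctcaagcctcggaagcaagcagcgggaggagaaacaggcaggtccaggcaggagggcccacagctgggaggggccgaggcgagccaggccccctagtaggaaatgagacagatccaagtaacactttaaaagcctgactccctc
Plaur, chr7:24462233-24462532, plus strand: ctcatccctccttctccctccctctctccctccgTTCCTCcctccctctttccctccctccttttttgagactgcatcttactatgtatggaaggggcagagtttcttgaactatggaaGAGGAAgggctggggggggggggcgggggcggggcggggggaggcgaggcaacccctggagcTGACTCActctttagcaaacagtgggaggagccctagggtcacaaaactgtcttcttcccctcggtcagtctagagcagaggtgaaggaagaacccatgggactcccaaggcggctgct
F10, chr8:13037058-13037357, plus strand: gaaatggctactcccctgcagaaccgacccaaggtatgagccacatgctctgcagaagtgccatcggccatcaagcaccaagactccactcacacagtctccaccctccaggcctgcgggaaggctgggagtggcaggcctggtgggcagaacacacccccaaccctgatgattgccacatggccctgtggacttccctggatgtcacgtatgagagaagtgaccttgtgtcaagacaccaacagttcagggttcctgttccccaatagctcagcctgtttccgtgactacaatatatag
Counting the start base as 0, F3 held TGAATCA from base -146 to -140 and TGAGTCA from base -135 to -129, and Procr held TGACTCA from base -154 to -148. Plaur held TGACTCA from base -69 to -63, and PU.1 cores from base -216 to -211 on the minus strand and from base -131 to -126 on the plus strand. PU.1 cores were also present in the promoters of F7 and F13a1, which held no AP-1 site, and no NF-kB consensus was found in any of the 7 windows. Of all 32851 promoters of this length, 7.81% held an AP-1 site, 28.3% a PU.1 core and 8.46% the NF-kB consensus. Of the 11125 promoters of tested genes, 5.27% held an AP-1 site, 27.1% a PU.1 core and 10.5% the NF-kB consensus. A match describes the letters of the window and does not show that a factor binds there. Sites that depart from a pattern were not searched for, so the lack of a match does not show that a factor does not bind.

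**Figure D1:**
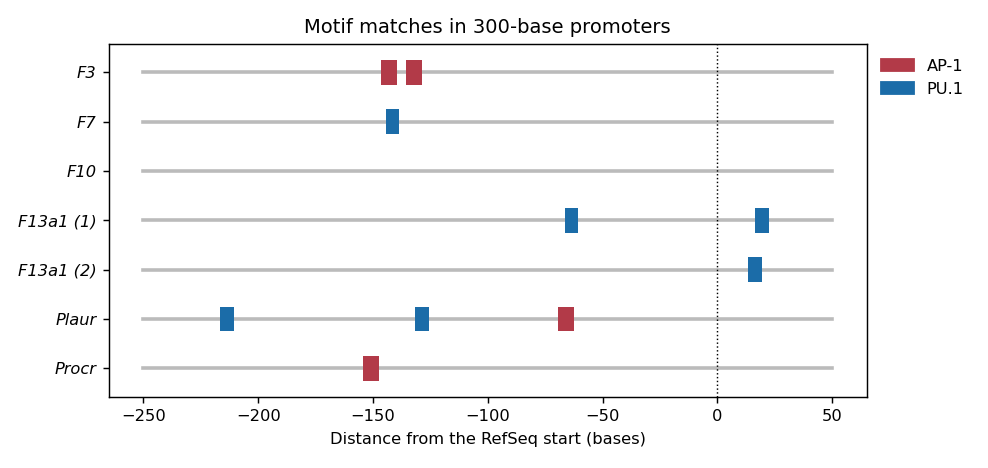
Motif matches in the 7 promoters, with the distance from the RefSeq start in bases on the x axis and each promoter as a grey line from 250 bases before to 50 after the start. Red boxes are AP-1 sites, 2 in F3 and 1 each in Plaur and Procr, and blue boxes are PU.1 cores in F7, F13a1 and Plaur, while the F10 line is empty.

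Between 48008751 and 58500792 reads were counted per library, so that 1 read was worth 0.0171 to 0.0208 CPM. Treml4 had no read in any Treml4-/- library and 198 to 663 reads in each wt library. All 6 macrophage markers examined (Csf1r, Cd68, Itgam, Fcgr1, Lyz2 and Mertk) were above 1 CPM in every library, and their summed level was 18630 to 25435 CPM at M0, 8395 to 11112 CPM at M1-8 h and 8113 to 8921 CPM at the later time. The part of this fall in the results was not tested. Nos2, a marker of M1 activation, was at 3.39 to 6.90 CPM at M0 and between 15560 and 19425 CPM in the LPS libraries, with Il1b at 0.285 to 0.924 CPM at M0 and 128 to 345 CPM after LPS. CPM are shares of a library, and LPS moved the whole distribution: the median log2 fold change of the 12086 tested genes was -0.72 at M1-8 h and -0.76 at M1-12 h. Under median of ratios scaling, which centres the typical gene near 0, the same medians were both -0.04. The split of called genes was 2070 higher and 7225 lower at M1-8 h with library totals, and 3762 higher and 3792 lower with median of ratios, under which 62.5% of the genes were called. At M1-12 h the split was 1965 higher and 7284 lower against 3949 higher and 3943 lower, the second being 65.3% of the genes.

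After LPS, Procr, F10, F3 and Plaur rose at both times, while Thbd, Plau and F13a1 fell, F13a1 at M1-8 h only with library totals (-0.15 and not called under median of ratios scaling, 0.09 under quantile normalization). Procr rose the most of the 9 genes, with a mean CPM 60.0-fold higher at M1-8 h and 49.3-fold higher at M1-12 h than at M0, and Thbd fell the most, to a mean CPM 24.6-fold lower and 14.7-fold lower. The paired receptors of the protein C system thus moved in opposite directions, as did urokinase, whose mean CPM was 4.18-fold lower at M1-8 h, and its receptor, 4.75-fold higher. These sizes depend on the scaling. Under median of ratios the log2 fold change at M1-8 h was -1.25 for Plau, against -2.05 with library totals, and 3 for Plaur, against 2.21. With limma on log2(CPM + 1), a gene was called when it passed 0.05 after Benjamini-Hochberg adjustment and differed by 1.4-fold or more. Of the 9 genes 8 were tested, since Plat stayed under the filter of 1 CPM in at least 2 libraries. At M1-8 h 7 of the 8 were called, 4 higher and 3 lower, where 76.9% of all tested genes were called, 17.1% higher and 59.8% lower. At M1-12 h all 8 were called, 5 higher and 3 lower, where 76.5% of all tested genes were called, 16.3% higher and 60.3% lower. F3 passed the filter only through the LPS libraries and Thbd was at or above 1 CPM in no M1-8 h library, so these counts are a description. The median log2 fold change of the 8 genes was 1.12 at the earlier and 1.34 at the later LPS time, on a scale where a pseudocount of 1 CPM shrinks differences at low CPM. The LPS and M0 libraries did not overlap in 83.3% of all tested genes at M1-8 h and 86.5% at M1-12 h, and those of both LPS times in 51.3%, which is the background for the overlaps given below gene by gene. In bulk RNA, fewer cells that express a gene and less RNA per cell cannot be told apart.

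**Figure D2:**
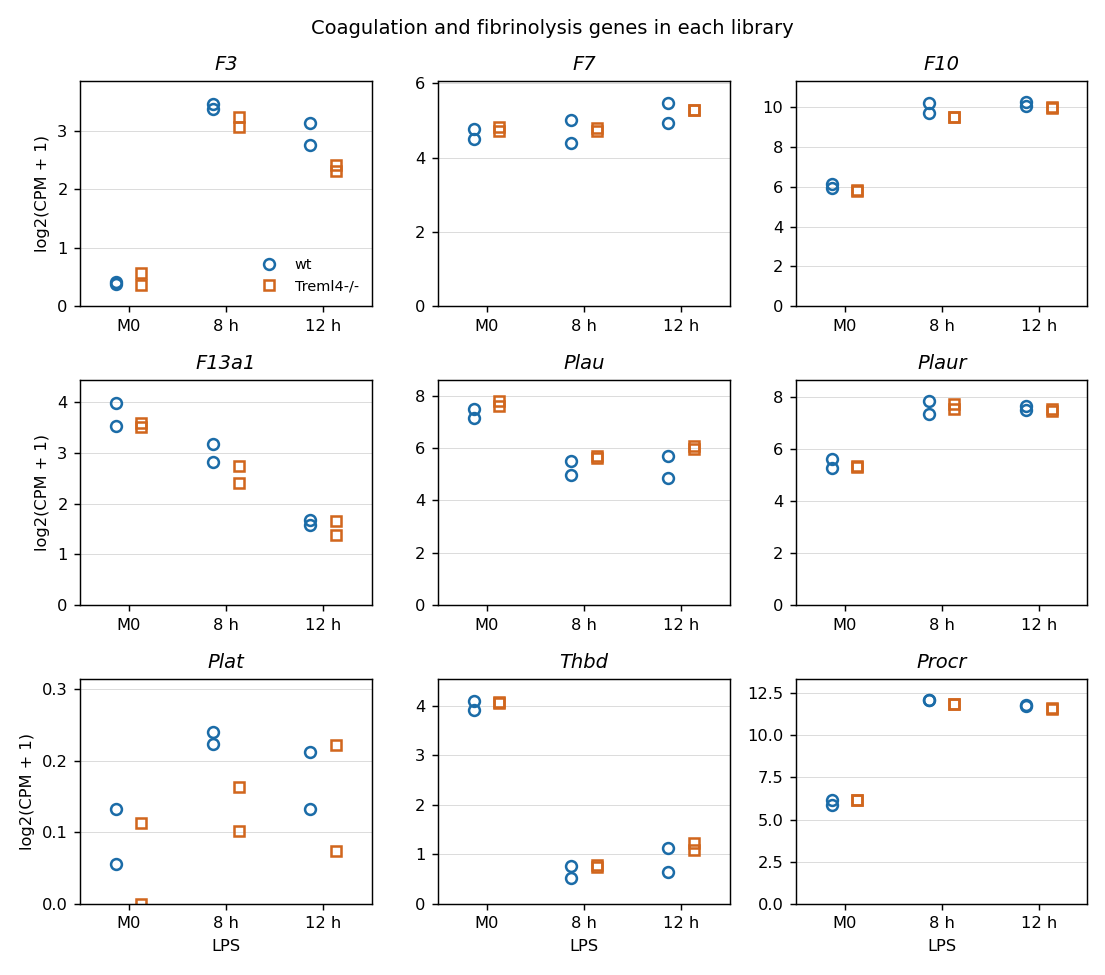
Level of the 9 genes in each library, as log2(CPM + 1) on the y axis of each panel, at M0 and after 8 h and 12 h of LPS on the x axis, with wt libraries as blue circles and Treml4-/- libraries as orange squares. F3, F10, Plaur and Procr sit higher in all LPS libraries than at M0, Thbd, Plau and F13a1 lower, and Plat had at most 9 reads in any library.

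F3 encodes tissue factor, the cell-surface trigger of clotting. F3 was at 0.309 and 0.334 CPM in the wt and 0.285 and 0.486 CPM in the Treml4-/- M0 libraries, from 14 to 26 reads each. At M1-8 h F3 reached 9.95 and 9.34 CPM in wt and 7.40 and 8.45 CPM in Treml4-/- libraries. At M1-12 h its values were 5.74 and 7.80 CPM in wt and 4.35 and 3.96 CPM in Treml4-/- libraries. Every LPS library was above every M0 library, and the wt libraries were above the Treml4-/- libraries at both LPS times but not at M0. The mean CPM was 24.8-fold higher at M1-8 h and 15.4-fold higher at M1-12 h than at M0. F3 reached 1 CPM in no M0 library and passed the filter only through the LPS libraries, so its tests against M0 are a description. On the log2(CPM + 1) scale F3 rose by 2.85 ± 0.10 (SE; limma adjusted p = 2.07e-10) at M1-8 h and by 2.22 ± 0.10 (adjusted p = 1.49e-09) at M1-12 h. From M1-8 h to M1-12 h F3 fell by 0.63 (limma adjusted p = 0.000289). Its mean CPM was highest at the earlier LPS time, though the libraries of both LPS times overlapped.

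F7 encodes factor VII, the partner of tissue factor. Across the 4 M0 libraries F7 was at 21.6 and 26.4 CPM in wt and 27.4 and 25.6 CPM in Treml4-/- cells. At M1-8 h it was at 20.0 and 31.6 CPM in wt and 26.7 and 25.2 CPM in Treml4-/- cells. At M1-12 h it was at 29.8 and 43.2 CPM in wt and 38.1 and 37.7 CPM in Treml4-/- cells. The M0 and M1-8 h values overlapped, all 4 M1-12 h values lay above M0, and the genotypes overlapped at each time. F7 differed by 0.02 on the log2 scale at M1-8 h (95% interval -0.30 to 0.34; limma adjusted p = 0.887) and rose by 0.53 ± 0.14 (SE) at M1-12 h (adjusted p = 0.00431). Under median of ratios scaling F7 was called higher at M1-8 h too, at a log2 fold change of 0.79, and stood at 1.35 at M1-12 h. Without wt M0 replicate 1 or wt M1-12h replicate 2 F7 stood at 0.47 and 0.40 at M1-12 h, under the 1.4-fold minimum (adjusted p = 0.0199 and 0.021). The rise from M1-8 h to M1-12 h was 0.51 (adjusted p = 0.00988), and it was under the 1.4-fold minimum without wt M1-8h replicate 1 (0.35) or wt M1-12h replicate 2 (0.38).

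F10 encodes factor X, the protease activated by the F3 and F7 complex. In M0 libraries F10 was at 59.7 and 70.3 CPM in wt and 54.2 and 55.8 CPM in Treml4-/- cells. At M1-8 h it stood at 834 and 1186 CPM in wt and 728 and 716 CPM in Treml4-/- cells. At M1-12 h it stood at 1066 and 1196 CPM in wt and 979 and 1025 CPM in Treml4-/- cells. Both wt libraries exceeded both Treml4-/- libraries at all 3 times, and the LPS libraries lay far above M0. The mean CPM rose 14.4-fold at M1-8 h and 17.8-fold at M1-12 h, or by 3.80 ± 0.10 and 4.13 ± 0.10 on the log2 scale (SE; limma adjusted p = 1.96e-11 and 1.11e-11). Between the LPS times F10 differed by 0.33 (adjusted p = 0.0155), under the 1.4-fold minimum. F7, its neighbour on the same strand, stood 1.03-fold and 1.47-fold above M0 in mean CPM.

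F13a1 encodes the A subunit of factor XIII, which crosslinks fibrin. At M0 it was at 14.9 and 10.5 CPM in wt and 11.04 and 10.3 CPM in Treml4-/- cells. At M1-8 h it was at 6.02 and 8.00 CPM in wt and 5.71 and 4.32 CPM in Treml4-/- cells. By M1-12 h it was at 1.99 and 2.20 CPM in wt and 2.17 and 1.61 CPM in Treml4-/- cells. The 3 times did not overlap, and among the genotypes only the M1-8 h values were apart, with wt higher. F13a1 fell at both times, with log2 differences of -0.87 at M1-8 h and -2.07 at M1-12 h (SE 0.13; limma adjusted p = 6.47e-05 and 2.58e-08), to a mean CPM 5.86-fold lower than at M0 at the later time. Relative to the median of all tested genes the difference at M1-8 h was -0.14. Under median of ratios scaling it was -0.15 and not called, and under quantile normalization it was 0.09. The difference from M1-8 h to M1-12 h was -1.21 (adjusted p = 1.70e-05) and was called under each of those scalings.

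Plau encodes urokinase, which makes plasmin at the cell surface. Unstimulated wt cells had 140 and 181 CPM of Plau and Treml4-/- cells 192 and 219 CPM. At M1-8 h the values were 44.7 and 30.7 CPM in wt and 51.2 and 48.7 CPM in Treml4-/- cells. At M1-12 h they were 51.0 and 27.7 CPM in wt and 62.0 and 67.2 CPM in Treml4-/- cells. No LPS library reached the M0 range, and wt libraries were below Treml4-/- libraries at all 3 times. Plau fell at both times, with log2 differences of -2.05 at M1-8 h and -1.85 at M1-12 h (SE 0.17; limma adjusted p = 3.36e-07 and 8.04e-07). Between the LPS times the difference was 0.19 (95% interval -0.19 to 0.57; adjusted p = 0.356).

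Plaur encodes the urokinase receptor. Its M0 values were 37.7 and 47.3 CPM in wt and 39.7 and 38.9 CPM in Treml4-/- cells. At M1-8 h they were 225 and 159 CPM in wt and 211 and 182 CPM in Treml4-/- cells. At M1-12 h they were 198 and 178 CPM in wt and 176 and 183 CPM in Treml4-/- cells. Each LPS library was above all M0 libraries, and the genotypes overlapped throughout. Plaur rose by 2.21 ± 0.11 (SE; limma adjusted p = 2.99e-09) at M1-8 h and by 2.14 ± 0.11 (adjusted p = 3.68e-09) at M1-12 h in log2 units. The later time differed from the earlier by -0.07 (95% interval -0.31 to 0.17; adjusted p = 0.601).

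Plat encodes tissue-type plasminogen activator, the other activator of plasminogen. At M0 it had 5 and 2 reads in wt and 4 and 0 reads in Treml4-/- libraries. At M1-8 h it had 9 and 9 reads in wt and 7 and 4 reads in Treml4-/- libraries. At M1-12 h it had 5 and 8 reads in wt and 8 and 3 reads in Treml4-/- libraries. The M0 and LPS libraries overlapped, the wt libraries were above the Treml4-/- libraries at M1-8 h, and the library with 0 reads allows up to 3 reads. The highest level in any library was 0.182 CPM, and differences between conditions were not tested.

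Thbd encodes thrombomodulin, the thrombin receptor of the protein C system. Thbd was at 16.0 and 14.1 CPM in wt and 15.8 and 15.6 CPM in Treml4-/- M0 libraries. At M1-8 h it was at 0.686 and 0.427 CPM in wt and 0.667 and 0.714 CPM in Treml4-/- cells, from 23 to 39 reads. At M1-12 h it was at 1.17 and 0.556 CPM in wt and 1.33 and 1.13 CPM in Treml4-/- cells, from 28 to 65 reads. The M0 libraries were tightly grouped and far above all LPS libraries, and the genotypes overlapped at each time. Thbd fell at both times, with log2 differences of -3.34 ± 0.11 (SE; limma adjusted p = 1.19e-10) and -3.01 ± 0.11 (adjusted p = 2.69e-10). Mean CPM at M1-12 h was 1.68-fold that at M1-8 h, a difference of 0.32 with the pseudocount of 1 CPM (adjusted p = 0.0272), below the 1.4-fold minimum on that scale.

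Procr encodes the receptor that presents protein C to the thrombin and thrombomodulin complex. Unstimulated cells had 56.5 and 70.9 CPM of Procr in wt and 70.9 and 70.1 CPM in Treml4-/- libraries. At M1-8 h Procr reached 4336 and 4412 CPM in wt and 3665 and 3692 CPM in Treml4-/- libraries. At M1-12 h it was at 3478 and 3610 CPM in wt and 3041 and 3109 CPM in Treml4-/- libraries. Replicates lay close together after LPS and in Treml4-/- M0 libraries, while the wt M0 replicates were further apart. The wt libraries were above the Treml4-/- libraries at both LPS times but not at M0. Procr rose by 5.89 ± 0.07 (SE; limma adjusted p = 4.40e-14) at M1-8 h and by 5.61 ± 0.07 (adjusted p = 6.21e-14) at M1-12 h in log2 units. Among the 12086 tested genes its difference ranked 75 from the highest at M1-8 h and 83 at M1-12 h.

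Thrombomodulin and the protein C receptor are also genes of endothelial cells, and 6 endothelial markers were examined beside them. At M0 their summed level was 87.7 to 114 CPM, of which Vwf alone gave 80.1 to 107 CPM, and 4 of the 6 were under 1 CPM in every library. After LPS the sum was 97.4 to 121 CPM at M1-8 h and 204 to 309 CPM at M1-12 h, most of it Kdr, while Emcn had no read in any LPS library. The summed level of 6 neutrophil markers was 26.5 to 90.0 CPM at M0, 23.6 to 34.0 CPM after 8 h and 8.85 to 9.25 CPM after 12 h of LPS. The 6 megakaryocyte and platelet markers summed to 1.22 to 3.91 CPM in all libraries. The part of other cells in the differences was not tested.

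**Figure D3:**
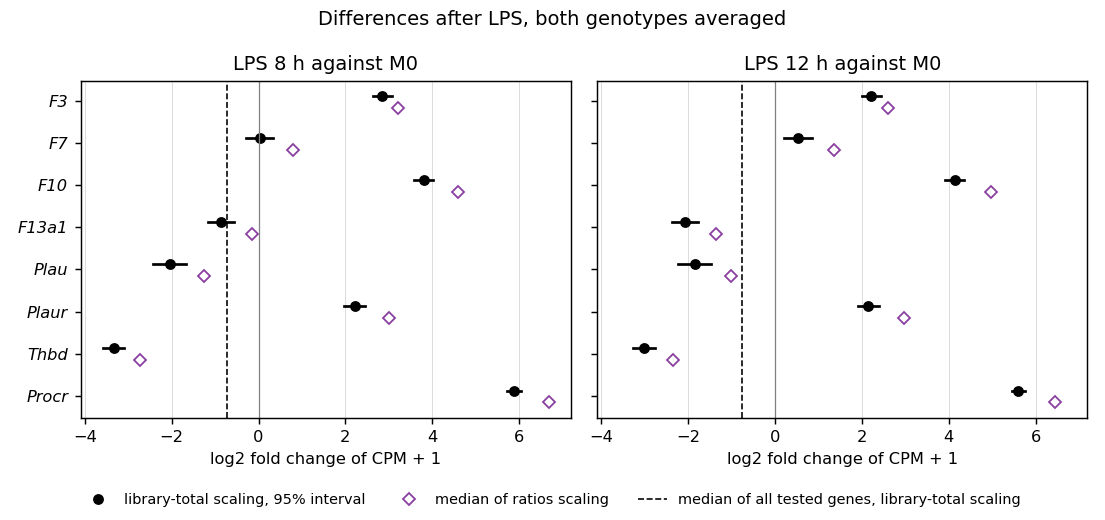
Log2 fold change of CPM + 1 after 8 h (left) and 12 h (right) of LPS against M0 for the 8 tested genes, both genotypes averaged, as black points with 95% intervals, and under median of ratios scaling as open purple diamonds. The dashed line is the median of all tested genes, -0.72 and -0.76, and F13a1 at M1-8 h is the point whose interval crosses it.

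Levels of different genes were compared as CPM per kb of annotated exons. At M0 Plau was the highest of the 9 genes, at 59.2 to 92.5 CPM per kb, and Procr at 27.8 to 34.9 and F10 at 19.9 to 25.7 came next. Plaur at 14.4 to 18.1 and F7 at 11.6 to 14.7 CPM per kb overlapped. Thbd, F13a1, F3 and Plat followed in this order without overlap. At M1-8 h Procr was at 1804 to 2172, F10 at 262 to 434 and Plaur at 60.7 to 86.0 CPM per kb, and Plau at 12.97 to 21.6 overlapped F7 at 10.8 to 17.0. Thbd had dropped from the sixth place to the eighth, at 0.115 to 0.192 CPM per kb, below F3 and F13a1 and above Plat. At M1-12 h the order was the same, except that Thbd at 0.149 to 0.358 and F13a1 at 0.240 to 0.327 CPM per kb overlapped. By mean CPM per kb, Procr ranked 1392 of the 11547 tested genes with a known length at M0, 15 after 8 h and 23 after 12 h of LPS. F10 ranked 2043, 153 and 111 at the same times.

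**Figure D4:**
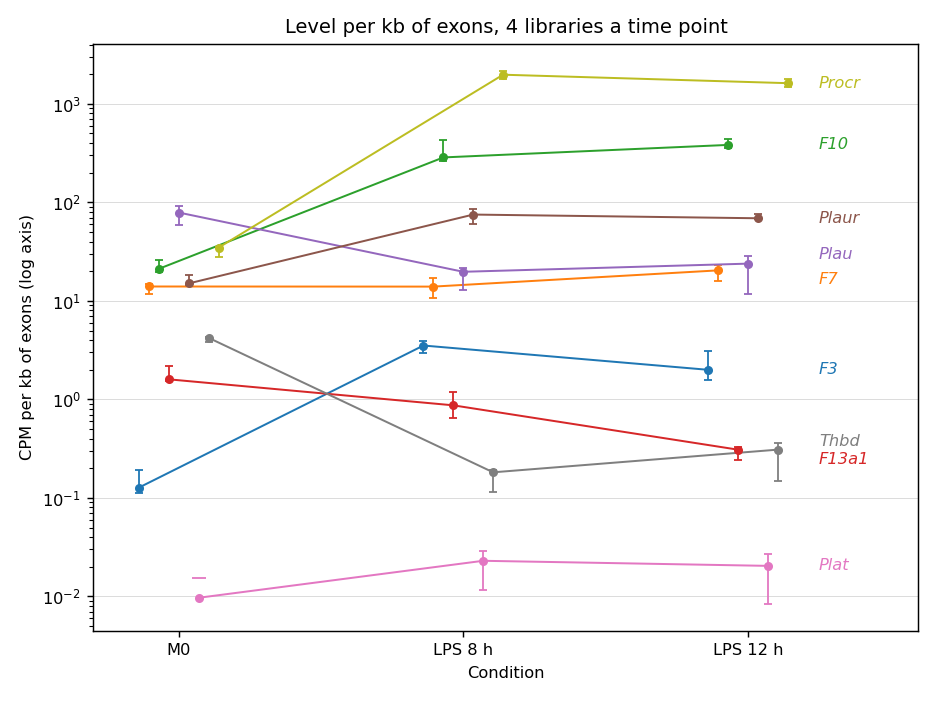
Level of the 9 genes in CPM per kb of exons, on a log axis, at M0 and after 8 h and 12 h of LPS, with the median of 4 libraries as a point and the lowest and highest library as bars (Plat at M0 has no lower bar because 1 library had 0 reads). Procr moves from below Plau to the top, between 1804 and 2172 at M1-8 h, and Thbd drops below F3 and F13a1.

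The LPS differences were also tested within each genotype. These are contrasts of the same fit of all libraries and share its estimate of the spread. Within each genotype 7 of the 8 genes were called at M1-8 h and 8 of 8 at M1-12 h, each in the same direction in both. Of all tested genes, 76.9% in wt and 75.9% in Treml4-/- cells were called at M1-8 h, with 76.7% and 75.7% at the later time. Between the genotypes, limma called 0 of the 8 genes at M0, M1-8 h or M1-12 h, where 0.0993%, 0.091% and 0.132% of all tested genes were called. At an unadjusted p under 0.05 the counts were 0, 2 and 2, and limma-voom on the recovered reads also called 0 at each time. Averaged over the 3 times 0 of the 8 were called, where 0.414% of all tested genes were called. In that average 4 of the 8 had an unadjusted p under 0.05. The share of all tested genes at the unadjusted threshold is not given here, so the unadjusted counts are a description. With 2 libraries per condition, these differences carry standard errors of 0.10 to 0.24 on the log2 scale within a time point.

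F10 was higher in wt than in Treml4-/- cells at all 3 times without overlap, with mean CPM of 65.0 against 55.0 at M0, 1010 against 722 after 8 h and 1131 against 1002 after 12 h of LPS. Such a pattern, with wt higher and no overlap at each time, was found in 1.31% of all tested genes. The log2 difference of F10, wt minus Treml4-/-, was 0.46 at M1-8 h (95% interval 0.15 to 0.78; limma adjusted p = 0.166) and 0.29 averaged over the times (0.11 to 0.47; adjusted p = 0.140). Plau was lower in wt than in Treml4-/- cells at all 3 times without overlap, with mean CPM of 160 against 206, 37.7 against 49.9 and 39.4 against 64.6. The same was found in 2.53% of all tested genes. Its log2 difference was -0.76 at M1-12 h (95% interval -1.30 to -0.22; limma adjusted p = 0.423) and -0.52 averaged over the times (-0.83 to -0.20; adjusted p = 0.121). Leaving out 1 library at a time, the Plau difference ranged from -1.19 to -0.334 at M1-12 h and from -0.658 to -0.373 averaged over the times. The largest differences, -1.19 and -0.658, came without wt M1-12h replicate 1. That was the wt library nearest the Treml4-/- values at M1-12 h, and leaving it out left 1 wt library there.

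F3 was higher in wt cells at M1-12 h, with mean CPM of 6.77 against 4.16 and a log2 difference of 0.58 (95% interval 0.26 to 0.90; limma adjusted p = 0.232). Procr differed by 0.25 at M1-8 h (95% interval 0.03 to 0.47; adjusted p = 0.203) and by 0.20 at M1-12 h (-0.01 to 0.42; adjusted p = 0.703). The wt and Treml4-/- values did not overlap in 2 of the 8 genes at M0, 5 after 8 h and 4 after 12 h of LPS, where this held for 28.8%, 51.9% and 43.1% of all tested genes. F7, Plaur and Thbd overlapped between the genotypes at each time, with intervals of the difference between -0.63 and 0.44 on the log2 scale for Plaur and Thbd and between -0.59 and 0.41 for F7. Plat had 9 and 9 reads in wt against 7 and 4 in Treml4-/- libraries at M1-8 h, and was not tested.

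**Figure D5:**
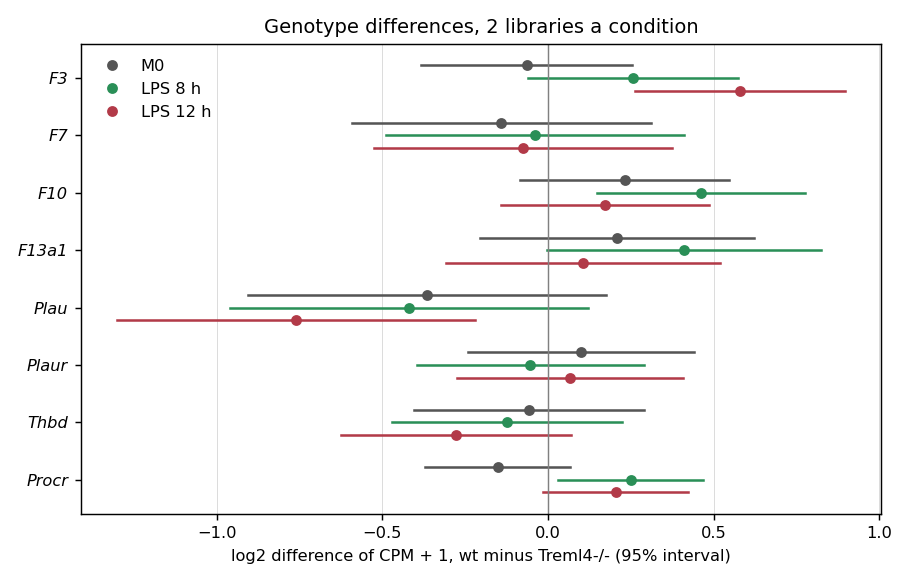
Log2 difference of CPM + 1 between wt and Treml4-/- cells on the x axis (wt minus Treml4-/-, with 95% intervals) for the 8 tested genes at M0 (grey), M1-8 h (green) and M1-12 h (red). Intervals that leave 0 are those of F10 and Procr at M1-8 h and of F3 and Plau at M1-12 h, none of which passed the adjusted threshold.

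Whether LPS acted differently in the genotypes was tested by interaction terms. None of the 8 genes passed at M1-8 h or M1-12 h with limma or limma-voom, where 0.00827% of all tested genes were called by limma at each time. At an unadjusted p under 0.05 the counts were 1 and 2, a description without the share of all tested genes. The LPS difference of Procr at M1-8 h was 6.09 in wt and 5.69 in Treml4-/- cells on the log2 scale, an interaction of 0.40 (95% interval 0.09 to 0.71; limma adjusted p = 0.729). The LPS difference of F3 at M1-12 h was 2.54 in wt and 1.90 in Treml4-/- cells, an interaction of 0.64 (95% interval 0.20 to 1.09; adjusted p = 0.999).

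From M1-8 h to M1-12 h, 3 of the 8 genes were called, F7 higher and F3 and F13a1 lower, where 32.1% of all tested genes were called, 13.5% higher and 18.7% lower. F10, Procr and Thbd passed the adjusted threshold with changes under 1.4-fold on the log2(CPM + 1) scale. Within the genotypes, F13a1 was called lower in both. F3 differed by -0.47 in wt, under the 1.4-fold minimum, and by -0.79 in Treml4-/- cells, where it was called. F7 was called in neither, at 0.49 in wt (limma adjusted p = 0.0692) and 0.53 in Treml4-/- cells (limma adjusted p = 0.0526). The libraries of both LPS times overlapped for F3 and F7.

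Of 44 further genes of clotting and fibrinolysis, 19 passed the filter. At M1-8 h 6 of the 19 were called higher and 8 lower with library totals, where 17.1% of all tested genes were called higher and 59.8% lower, and 9 higher and 4 lower under median of ratios scaling, where 62.5% were called. At M1-12 h the counts were 5 higher and 9 lower, beside 16.3% and 60.3% of all tested genes, against 8 higher and 5 lower, beside 65.3% called. Between the genotypes limma called 0 of the 19 at any time, beside 0.0993%, 0.091% and 0.132% of all tested genes. F8, F2rl1 and Serpinb2 reached 1 CPM only in LPS libraries and F9 only in M0 libraries, so they were tested through the condition where they were high, and their values are a description.

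Serpinb2, a clade B serpin that inhibits urokinase, was at 0.0374 to 0.656 CPM at M0, where 1 wt library with 34 reads stood above the other 3 with 2 to 4 reads. It was at 3.95 to 6.65 CPM at M1-8 h and 3.19 to 6.25 CPM at M1-12 h, above all M0 libraries, with log2 differences of 2.30 and 2.23. Serpinb2 was higher in wt than in Treml4-/- libraries at all 3 times without overlap, as were 1.31% of all tested genes. At M0 this rested on 4 reads in wt replicate 2 against 2 reads in each Treml4-/- library. Such counts are too few to tell apart from counting error. Limma did not call Serpinb2 between genotypes, on a scale where the pseudocount of 1 CPM shrinks differences at low CPM. The authors, with another test, reported Serpinb2 as differing between genotypes at M0 and after LPS. Its mean CPM was 0.367 against 0.0391 at M0, 5.58 against 4.17 at M1-8 h and 5.69 against 3.59 at M1-12 h. Plg, Cpb2 and A2m had no read in any library.

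Among 13 other clotting factors, F8, F9 and Vwf were tested, and thrombin (F2) and the 3 fibrinogen chains had no read in any library. Vwf, which carries factor VIII, was at 80.1 to 107 CPM at M0, 8.397 to 12.5 CPM after 8 h and 26.7 to 46.0 CPM after 12 h of LPS. Its log2 difference was -2.998 at M1-8 h (SE 0.13; limma adjusted p = 1.25e-09) and -1.485 at M1-12 h, both called lower, and it rose by 1.51 between the LPS times. F8 was at 0.0590 to 0.143 CPM at M0 and 0.792 to 1.59 CPM at M1-12 h. F9 was at 0.984 to 1.94 CPM at M0 and 0.499 to 0.538 CPM at M1-12 h.

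Of 9 natural anticoagulants, Tfpi and Pros1 were tested. Tfpi, which blocks the tissue factor and factor VII complex, was at 6.27 to 9.13 CPM at M0, 4.83 to 8.11 CPM after 8 h and 3.20 to 4.603 CPM after 12 h of LPS. It was called lower at M1-12 h with library totals, at -0.89 (limma adjusted p = 1.24e-05), while it was at -0.17 and not called with median of ratios and at 0.14 with quantile normalization. Between genotypes, Tfpi was lower in wt than in Treml4-/- libraries at all 3 times without overlap, as were 2.53% of all tested genes. Limma did not call this difference. Pros1, which encodes the protein C cofactor protein S, rose by 0.90 at M1-8 h (adjusted p = 6.66e-05) and differed by -0.93 between the LPS times (adjusted p = 0.000161), both called under all 3 scalings. The M1-8 h value was 1.67 under median of ratios scaling and 1.61 under quantile normalization. At M1-12 h Pros1 was at -0.03 and not called with library totals, and at 0.78 and 0.80 and called higher under those scalings.

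The 4 plasminogen receptor genes were all tested. S100a10 was called lower at M1-12 h under all 3 scalings, at -1.54 with library totals (limma adjusted p = 2.94e-08), and it fell by 1.03 between the LPS times, but at M1-8 h it was -0.51 with library totals and 0.28 with median of ratios. Plgrkt and Eno1 were called higher at M1-12 h, Eno1 not under quantile normalization, and Eno1 may share reads with its near-identical copy Eno1b. Of the 4 protease-activated receptors only F2rl1, a receptor that the tissue factor complex can cleave, was tested. It was at 0 to 0.0193 CPM at M0 and 0.786 to 1.23 CPM at M1-8 h, the one condition where it reached 1 CPM, and at 0.0384 to 0.119 CPM at M1-12 h, with log2 differences of 1.00 and 0.09. Of 7 genes for processing and clearance, 1 was called higher and 6 lower at M1-8 h with library totals, where 59.8% of all tested genes were called lower. Of the 6, Lrp1, Mcfd2 and Vkorc1l1 were called lower under all 3 scalings, while Ggcx, Lman1 and Vkorc1 were not called under the other scalings, with Lman1 at 0.04 under median of ratios and Ggcx at 0.03 and Vkorc1 at 0.01 under quantile normalization. Lrp1, an endocytic receptor that clears many proteases, fell from 4859 to 5664 CPM at M0 to 662 to 1009 CPM at M1-8 h, a log2 difference of -2.59 (adjusted p = 1.74e-08) that stood at -1.89 at M1-12 h. Furin, a protease that processes clotting factor precursors, rose by 1.09 at M1-8 h (adjusted p = 9.90e-07) and differed by -0.88 between the LPS times.

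The tested genes most alike in profile, by Pearson r of log2(CPM + 1) over the 12 libraries, which share 3 time points, are given as a description. They were Il6 and Hdc for F3 (r = 0.99 each), C3 and Tlr9 for F10 (1.00 each), Ets2 and Prr5l for Plaur (1.00 each) and Upp1 and Slco3a1 for Procr (1.00 each). For the genes that fell, they were Nlrc3 and S1pr1 for Thbd (1.00 each), Alg2 and Gm10116 for Plau (0.98 each) and E130012A19Rik and Ctdspl for F13a1 (0.99 each). F7 had the lowest likeness, at 0.90 with Syn1 and 0.90 with 1700001L05Rik.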

How the data were processed

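RNA of 12 libraries was sequenced from poly(A)-selected, stranded libraries. The authors aligned reads with STAR to mm10, counted them per gene with Subread and deposited log2 CPM, computed with a prior of 0.25 reads; versions and annotation are not given in the sources used here. Removing the prior gave whole reads for 100% of the values within 0.01 reads, so CPM, reads and library totals were recovered. The 12086 genes that reached 1 CPM in 2 or more libraries were tested with limma 3.58.1 in R 4.3.3 on log2(CPM + 1), with a mean per condition, a trended prior variance and Benjamini-Hochberg adjustment. Differences between genotypes are wt minus Treml4-/-, and intervals are 95%. The fit was tested on simulated data. All 9 genes are named, as are Serpinb2, Tfpi and, in each list of other pathway genes, called genes led by the largest difference, apart from an item that is not reported here. The members and lists were chosen with earlier results of these data known. Depth was 48008751 to 58500792 reads, and 3 reads, the limit that a count of 0 allows, correspond to 0.0513 to 0.0625 CPM, for counting error only. Replicate pairs were further apart than counting error allows and were kept separate. Alternatives covered the pseudocount, scale, filter, scaling, test, prior variance, block and each library left out.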

Additional observations from a re-analysis of the deposited data

How the results depend on the processing

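Of 1824 values of single genes under other settings, 1757 kept their direction and their side of the threshold, 50 turned direction, 10 passed the threshold anew and 7 no longer passed it. Every value that turned was uncalled in its main comparison, except F13a1 at M1-8 h, which was 0.0895 with quantile normalization. With quantile normalization Plaur was also 0.0348 from M1-8 h to M1-12 h, F7 0.0444 between genotypes at M1-8 h and Plau 0.124 in the interaction at M1-8 h. Under median of ratios scaling the genotype difference was 0.0863 for F7 and 0.0771 for Plaur at M1-8 h and 0.0094 for F7 at M1-12 h, and the interaction was 0.0321 for Plau at M1-8 h and 0.0162 for Plaur at M1-12 h. Without a minimum fold change 6 of the 8 genes were called from M1-8 h to M1-12 h in place of 3, F10, Procr and Thbd in addition. Without a filter on low values F7 missed the threshold at M1-12 h (limma adjusted p = 0.0585) and from M1-8 h to M1-12 h (0.117). Thbd from M1-8 h to M1-12 h passed with a pseudocount of 0.1 CPM, at 0.626, on the deposited log2 CPM, at 0.699, and with limma-voom, at 0.70. Apart from the definition of the call and the scale, the cause was not tested.

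Leaving out 1 library at a time, the count of genes called ranged from 7 to 8 at M1-12 h, from 2 to 3 from M1-8 h to M1-12 h, and from 0 to 1 between genotypes at M1-12 h and over the 3 time points, where Plau was called without wt M1-12h replicate 1. The values that turned direction ranged as follows. For LPS, F7 at M1-8 h ranged from -0.136 to 0.181, and from M1-8 h to M1-12 h Plau ranged from -0.0205 to 0.407 and Plaur from -0.196 to 0.0538. Between genotypes at M0, F3 ranged from -0.17 to 0.0401, F13a1 from -0.0253 to 0.441, Plaur from -0.0602 to 0.261, Thbd from -0.141 to 0.0268 and Procr from -0.314 to 0.00867. At M1-8 h, F7 ranged from -0.357 to 0.277 and Plaur from -0.303 to 0.196. At M1-12 h, F7 ranged from -0.338 to 0.186, F13a1 from -0.0318 to 0.245 and Plaur from -0.00895 to 0.141. Over the 3 time points, F7 ranged from -0.191 to 0.0202 and Plaur from -0.0453 to 0.121. In the interaction at M1-8 h, F7 ranged from -0.217 to 0.418, F10 from -0.0242 to 0.484, F13a1 from -0.0294 to 0.437, Plau from -0.319 to 0.21, Plaur from -0.403 to 0.0959 and Thbd from -0.187 to 0.0539. At M1-12 h, the interaction ranged from -0.198 to 0.326 for F7, -0.175 to 0.0573 for F10, -0.335 to 0.132 for F13a1, -0.824 to 0.0312 for Plau, -0.196 to 0.126 for Plaur and -0.461 to 0.0188 for Thbd. Where 1 library remained in a condition, it was assumed to vary like the others.

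Deviations of same-numbered wt and Treml4-/- libraries from their condition means correlated at -0.26 at M0, 0.30 after 8 h and 0.06 after 12 h of LPS, so the replicate numbers were not taken as pairs. Same-numbered libraries of 1 genotype at different times, which the titles give 1 replicate number, correlated from 0.06 to 0.41 in wt and from -0.27 to 0.46 in Treml4-/- cells. With genotype and replicate number together as a fixed block, 7, 8 and 3 of the 8 genes were called for LPS at M1-8 h, at M1-12 h and between them and 0 for interactions, and as a random block the counts were the same, with 0 between genotypes. Over all tested genes the fixed block gave 9299, 9252 and 3894 calls for LPS, against 9295, 9249 and 3885 without it, and the random block gave 36 calls between genotypes over the 3 time points, against 50. With the replicate number as a block, 7, 8 and 3 of the 8 genes were called for LPS at M1-8 h, at M1-12 h and between them, and 0 between genotypes or for interactions, as without the block. Over all tested genes, the block gave 12, 12 and 15 calls between genotypes at M0, M1-8 h and M1-12 h, against 12, 11 and 16 without it. A pairing crossed at M0, chosen after seeing the data, gave 11, 421 and 19 calls, and a block within each time point without crossing, also chosen after seeing the data, 11, 13 and 10. The 2 libraries per condition limit what these tests can detect between genotypes.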
